A study of Rattus norvegicus with 6 samples.

Results

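The miRNAs described here are those with a number of 1000 or above in their name, in rat peri-infarct cortex, the tissue that borders the infarct after a stroke. Members were chosen by name alone: the rows of the expression table whose number after rno-miR- was at least 1000, leaving out miR-1193, miR-1224 and miR-1839, which held 4 rows. This gave 47 of the 493 rows, with 37 distinct numbers from miR-1188 to miR-7578. They were set against the 423 rows numbered below 1000, and the 19 let-7 rows carry no such number. The number of miR-935 was the highest below the limit.

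Small RNA was sequenced from 3 libraries of each group of Sprague-Dawley rats. In both groups blood flow in the right middle cerebral artery was blocked for 90 min and then restored (MCAO). The MCAO group had no stimulation, and its cortex was taken 7 days after reperfusion. The MCAO-rTMS group also received 10 Hz repetitive transcranial magnetic stimulation (rTMS), a pulsed magnetic field from a coil over the head, for 10 min a day on 7 consecutive days. Per the study's methods the rats were male, the coil lay above the motor cortex of the occluded side and stimulation began on the day after reperfusion. The labels of the MCAO-rTMS group give no day of tissue collection, and the study describes the peri-infarct comparison as made on a single day after modeling, that of the MCAO label. The labels give no age. No sham-operated library was analysed here. Per the study's methods the tissue came from 3 rats a group, although the labels tie no library to an animal, and the p-values measure the spread between these libraries.

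A mature miRNA is cut from a hairpin transcript, leaves the 5′ or the 3′ side of it (the 5p and the 3p arm), and guides the silencing complex to mRNAs that pair with its seed, bases 2 to 8. Names are numbered in the order of registration, so the low numbers hold the abundant and conserved families found by cloning, and the high numbers hold miRNAs found mostly by deep sequencing. Many of the latter lie in introns of protein-coding genes or are known from rodents only.

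The sequences below are those of the miRNAs on which the group comparison turns, from RefSeq (assembly GRCr8), 5′ to 3′, with the seed in capitals. The first 4 are the arms of the paired miR-1843 genes, shown because they are nearly identical and held most of the counts.

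miR-1843a-5p: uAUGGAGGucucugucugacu
miR-1843b-5p: aUGGAGGUcucugucugacuuag
miR-1843a-3p: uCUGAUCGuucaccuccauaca
miR-1843b-3p: uCUGAUCGuuccccuccauac

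The next 5 are other miRNAs that were higher in the MCAO-rTMS libraries.

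miR-6331: cUUUGGUGgcuuaguucuuugugc
miR-1249: aCGCCCUUcccccccuucuuca
miR-3559-3p: aUGUAGUAcugagucugucgug
miR-6319: uCAUUCUCgcugcucuggagu
miR-3594-5p: cCCAGGGCagagcagugugaa

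The last 4 are the 3 that were lower in the MCAO-rTMS libraries and miR-338-3p, a miRNA numbered below 1000 that is shown because miR-3065-5p is complementary to it.

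miR-3068-5p: uUGGAGUUcaugcaaguucuaacca
miR-3065-5p: uCAACAAAaucacugaugcu
miR-6315: uCUGGACAggacaggcccugagc
miR-338-3p: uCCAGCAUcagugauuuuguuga

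The libraries held 10492610 to 15411620 counts. The table listed no count from 1 to 9, and the smallest value above 0 was 10. A 0 is therefore a value under 10 counts, which was 0.626 to 0.972 CPM (the count scaled to a fixed library size) across the libraries. The library sizes were adjusted by TMM factors, which correct for libraries in which a few abundant miRNAs take up many of the reads, and these factors lay between 1.16 and 1.39 in the MCAO and between 0.695 and 0.864 in the MCAO-rTMS libraries. The neural miR-9a-5p (mean 167600 CPM in MCAO and 150000 CPM in MCAO-rTMS), miR-128-3p (212000 and 341000 CPM) and miR-124-3p (5318 and 3793 CPM) were abundant. They did not change in one direction. By edgeR's test the log2 fold change was 0.69 ± 0.23 SE for miR-128-3p (adjusted p = 0.0358). It was -0.49 ± 0.21 SE for miR-124-3p (adjusted p = 0.0861) and -0.16 ± 0.15 SE for miR-9a-5p (adjusted p = 0.391). The liver miRNA miR-122-5p was at 2.48, 29.6 and 5.07 CPM in MCAO and at 10.2, 10.2 and 11.1 CPM in MCAO-rTMS. miR-451-5p, a red blood cell miRNA, was at 22.2, 60.6 and 11.8 CPM in MCAO and at 9.93, 10.1 and 10.9 CPM in MCAO-rTMS. Both were highest in MCAO 2. Of the muscle miRNAs, miR-1-3p averaged 6.67 CPM in MCAO and 37.1 CPM in MCAO-rTMS (log2 fold change 2.48 ± 0.29 SE, adjusted p = 0.000642), and miR-133a-3p averaged 40.1 and 18.9 CPM (-1.08 ± 0.26 SE, adjusted p = 0.0120). The part of differing cell makeup in the results was not tested, and in bulk tissue fewer cells of a type and less of a miRNA per cell cannot be told apart.

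The high-numbered miRNAs were scarce. Their median abundance, taken over the row means of the 6 libraries, was 2.86 CPM (quartiles 0.895 and 12.0), against 31.5 CPM (5.11 and 246) for the rows numbered below 1000. Of the 47 rows, 33 (70.2%) were under 10 CPM and 4 (8.51%) were over 100 CPM. Below 1000 these shares were 32.2% and 33.8%. The low values belonged to the highest numbers. The 10 rows from 1000 to under 2000 had a median of 17.2 CPM, against the 23.8 CPM of the 64 rows from 500 to under 1000, and the 37 rows at 2000 and above had a median of 2.17 CPM. The medians of the classes under 100, from 100 to under 300 and from 300 to under 500 were 30.5, 32.8 and 34.4 CPM. The abundant end differed more: the most abundant high-numbered row, miR-1843b-5p, averaged 773 CPM, while the most abundant row below 1000 was at 277000 CPM. Rows are not replicates, so these values are a description without a test.

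**Figure D1:**
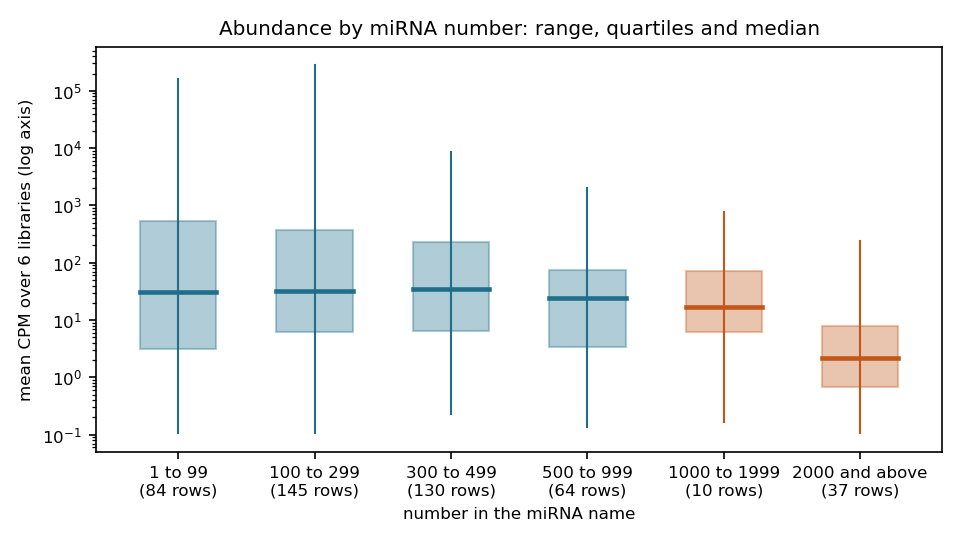
Mean CPM over the 6 libraries (log axis) by the number in the miRNA name. Lines span the lowest to the highest row, boxes the quartiles, and thick bars mark medians, which lie between 17.2 and 34.4 CPM in the first 5 classes and at 2.17 CPM for numbers of 2000 and above.

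The high-numbered miRNAs were also listed as 0 more often. Of their 282 values 57 (20.2%) were 0, against 222 of 2538 (8.75%) below 1000, and 20 of the 47 rows (42.6%) held at least one 0, against 71 of 423 (16.8%). The excess lay in the numbers of 2000 and above, with 23.4% of values at 0, while the rows from 1000 to under 2000 had 8.33% and those from 500 to under 1000 had 11.5%. Among rows with a mean count under 50 the shares were closer, as 35.3% of the values of the high-numbered rows and 39% of the values below 1000 were 0. At mean counts from 50 to 200 the shares were 3.03% and 0.49%. These rest on 2 zeros in each set, and both zeros of the high-numbered set were those of miR-6321. In both sets the MCAO-rTMS libraries held more zeros. Among the high-numbered rows 20 of 141 values (14.2%) were 0 in MCAO and 37 (26.2%) in MCAO-rTMS, and below 1000 the shares were 5.12% and 12.4%. The number of high-numbered rows at 0 was 6, 13 and 1 in MCAO 1 to 3, and 11, 10 and 16 in MCAO-rTMS 1 to 3, so that the groups overlapped through MCAO 2. That library had the fewest counts, although every MCAO-rTMS library had more counts than any MCAO library. After scaling, 10 counts were 0.637, 0.825 and 0.626 CPM in MCAO 1 to 3. In MCAO-rTMS 1 to 3 they were 0.752, 0.843 and 0.972 CPM. The part of this floor in the zeros was not tested.

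**Figure D2:**
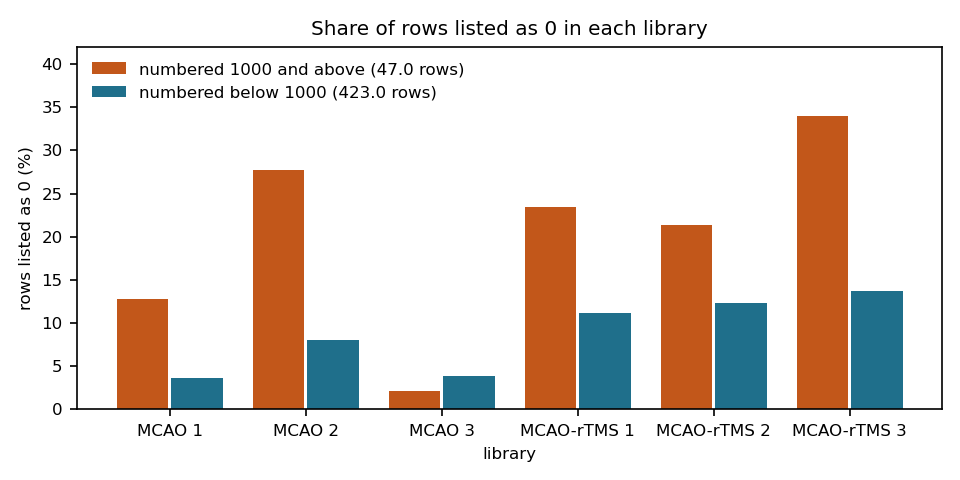
Percent of rows listed as 0 in each library, for the 47 rows numbered 1000 and above and the 423 rows below 1000. The share of high-numbered rows at 0 exceeded that of the low-numbered rows in 5 libraries and was smaller in MCAO 3, where 1 high-numbered row was at 0.

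MCAO 3 stood apart among the rare high-numbered miRNAs. Below 1000 it did not stand apart in this way, with 15, 34 and 16 rows at 0 in MCAO 1 to 3. Of the 47, 6 were at 0 in both other MCAO libraries and above 0 in MCAO 3 (miR-6321, miR-6216, miR-3550, miR-3552, miR-1247-5p and miR-3084a-1-5p), and for the last 4 it was the only library with a count. Another 27 miRNAs were above 0 in all 6 libraries. In the MCAO group alone 9 were detected, 2 of them in all 3 libraries, and none was detected in the MCAO-rTMS group alone. Below 1000, too, more values were 0 in MCAO-rTMS (12.4%, against 5.12% in MCAO), so this split cannot be read as particular to the high-numbered rows. Among rows with enough counts to be tested, 2 of 39 high-numbered rows were at 0 in one whole group. The same held for 13 of 391 rows below 1000 and 15 of all 452. The other counts in this paragraph were not made over all rows.

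The high-numbered rows together held 0.1686%, 0.1501% and 0.1664% of the counts in MCAO 1 to 3 and 0.2253%, 0.2155% and 0.2313% in MCAO-rTMS 1 to 3. The groups did not overlap. Their means were 0.162% ± 0.0101 and 0.224% ± 0.00799 (SD, n = 3 each), and the difference of 0.0623 percentage points had a two-sided exact permutation p of 0.1, the smallest that 3 libraries against 3 can give. Most of these counts came from 4 rows: miR-1843a and miR-1843b, both arms, held 63.5% ± 7.40 of the high-numbered counts in MCAO and 69.5% ± 6.35 in MCAO-rTMS (SD, n = 3). Without them the shares of all counts were 0.0591% ± 0.0135 and 0.0679% ± 0.0119 (SD, n = 3), with an exact permutation p of 0.4.

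For the comparison of single miRNAs between MCAO-rTMS and MCAO, 39 of the 47 had enough counts to be tested (83.0%, against 92.4% below 1000). Of these, 13 (33.3%) passed the quasi-likelihood test of edgeR at an adjusted p under 0.05, 10 higher and 3 lower in MCAO-rTMS. Without the 4 miR-1843 rows, a count added after the data were seen, 9 of 35 passed, 6 higher and 3 lower. With near-identical a and b rows summed, 11 of 36 passed (30.6%, against 55.2% of all rows), 8 higher and 3 lower. Over all 452 rows tested, 55.3% passed, 27.2% higher and 28.1% lower. Below 1000, 222 of 391 (56.8%) passed, 102 higher and 120 lower. At an unadjusted p under 0.05 there were 19 high-numbered rows (48.7%, against 62.4% of all tested rows). Without MCAO 3 the adjusted test passed 16 of 39 (41.0%, against 46.1% of all tested rows). CPM values of the groups did not overlap for 22 of the 39 (56.4%), against 66.8% of all tested rows. The smaller share of calls held where counts were low: 4 of 18 (22.2%) against 32 of 62 (51.6%) below 1000 at a mean count under 50, and 3 of 11 (27.3%) against 34 of 68 (50%) from 50 to 200. It was 3 of 6 against 63 of 103 from 200 to 1000, and 3 of 4 against 93 of 158 above that. The median SE of the log2 fold change was 0.36 for high-numbered rows and 0.27 below 1000. With a mean count above 200 as the filter, 70.0% of the members tested passed against 67.8% of all rows. These were 7 of 10 members, and miR-1843a-5p, miR-1843b-5p and miR-1843a-3p were among the 7. With each 0 set to 9 counts the share was 46.5% against 51.4%. The difference in the share of calls was not tested.

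The median log2 fold change of the 39 was 0.47, against -0.28 below 1000 and -0.21 over all tested rows. The 0.47 was the value of miR-3084a-5p and miR-3084b-5p, which had equal counts in every library (0.47 ± 0.89 SE). With near-identical a and b rows summed, the median of 36 tested rows was 0.29, against -0.21 over all rows. Among the 39, the median was 1.22 for the 9 tested rows from 1000 to under 2000, where 5 passed, all higher and 4 of them miR-1843. For the 30 at 2000 and above it was 0.05, where 5 were higher and 3 lower. The split of calls depended on the scaling. With library totals only, the median of all rows moved to -0.80 and that of the 39 to -0.18, and 5 of 12 calls (41.7%) were higher. With upper-quartile factors 9 of 14 (64.3%) were higher. Relative to the median of all rows, that of the members lay 0.68 higher with TMM factors and 0.62 higher with library totals. It lay 0.51 higher with the a and b rows summed, and 0.38 higher without the filter on low counts or with each 0 set to 9.

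**Figure D3:**
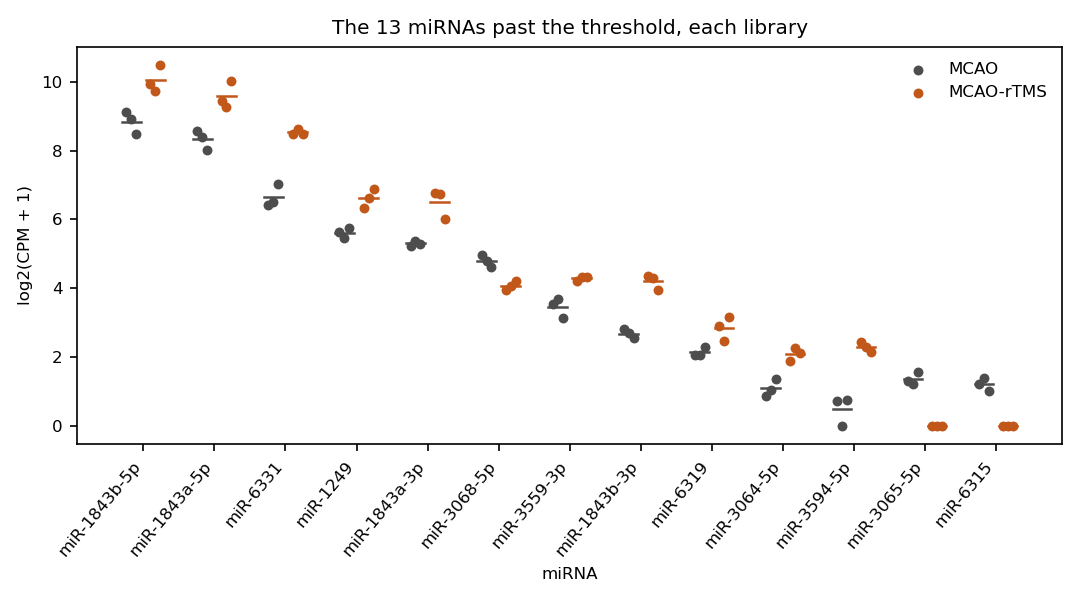
Values of log2(CPM + 1) in each library for the 13 miRNAs with an adjusted p under 0.05, ordered by mean CPM. Points are libraries and bars are group means of 3 libraries. For each of the 13 the groups did not overlap, and miR-3065-5p and miR-6315 were at 0 in all MCAO-rTMS libraries.

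The miR-1843 family was the most abundant, and each of its rows, both arms of a and b, was higher in MCAO-rTMS. miR-1843b-5p was at 550.5, 479.8 and 359 CPM in MCAO and at 969.8, 849 and 1432 CPM in MCAO-rTMS (log2 fold change 1.23 ± 0.27 SE, adjusted p = 0.00767). miR-1843a-5p was at 379, 337 and 256 CPM against 696, 615 and 1028 CPM (1.27 ± 0.26 SE, adjusted p = 0.00613). In both, MCAO 3 was the lowest and MCAO-rTMS 3 the highest of the 6 libraries. The 3p arms were scarcer. miR-1843a-3p was at 36.6, 40.7 and 38.3 CPM in MCAO and at 107, 106 and 64.1 CPM in MCAO-rTMS (1.26 ± 0.24 SE, adjusted p = 0.00407). miR-1843b-3p was at 5.99, 5.45 and 4.89 CPM against 19.3, 18.8 and 14.5 CPM (1.69 ± 0.22 SE, adjusted p = 0.000925). In the 3p arms MCAO-rTMS 3 was the lowest of its group, the reverse of the 5p arms. With library totals only, the change of miR-1843a-3p was 0.67 and did not pass (adjusted p = 0.0949), while the other 3 rows passed and were higher.

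The products of the paired genes are nearly identical. Bases 2 to 21 of miR-1843a-5p are bases 1 to 20 of miR-1843b-5p, so the products differ by a shift of 1 base at the 5′ end and by the last 3 bases of the b form, and their seeds are AUGGAGG and UGGAGGU. The count of the a row was 0.688, 0.703 and 0.715 times that of the b row in MCAO and 0.717, 0.724 and 0.718 times in MCAO-rTMS, so that the rows moved together in every library. The 3p arms share the seed CUGAUCG and differ by A12C, with positions counted from the 5′ end of the a form, and by the last base of the a form. Their a to b ratio was 6.11, 7.47 and 7.85 in MCAO and 5.56, 5.65 and 4.42 in MCAO-rTMS (means 7.14 ± 0.915 and 5.21 ± 0.682, SD, n = 3 each), with no overlap of the groups and an exact two-sided permutation p of 0.1, the smallest possible. How reads that match both rows were assigned is not given in the sources used here, so values of single rows are uncertain. RefSeq places miR-1843b within Cop1, which encodes an E3 ubiquitin ligase, and miR-1843a within Dcaf5, an adaptor of a ubiquitin ligase complex. The miR-1843a hairpin carries the gene name Scarna3, that of a small Cajal body RNA.

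**Figure D4:**
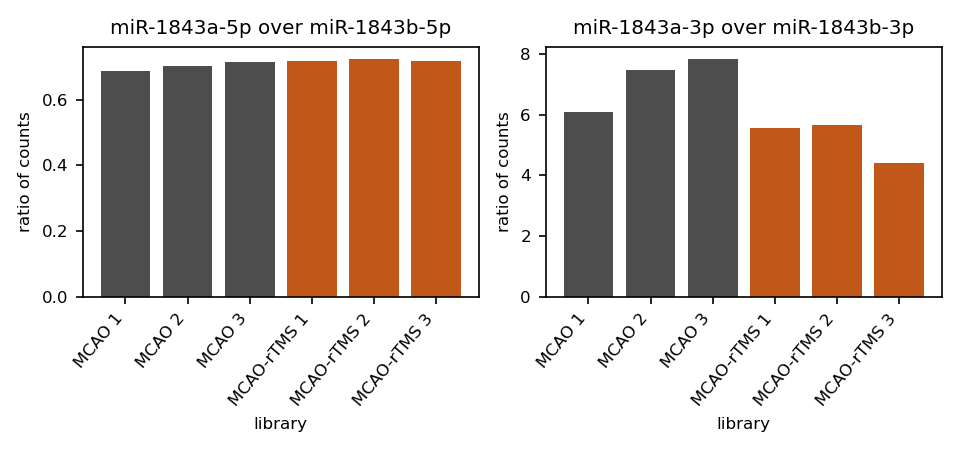
Ratio of the counts of the miR-1843a row to those of the miR-1843b row in each library, for the 5p arm and the 3p arm (axes differ). The 5p ratio stayed between 0.688 and 0.724, and the 3p ratio was 6.11 to 7.85 in MCAO and 4.42 to 5.65 in MCAO-rTMS.

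miR-6331 was the most abundant member after the miR-1843 5p arms and had the smallest adjusted p of the 39. It was at 85.0, 90.0 and 128 CPM in MCAO and at 359, 395 and 359 CPM in MCAO-rTMS, a 3.66-fold rise (log2 fold change 1.87 ± 0.22 SE, adjusted p = 0.000642). The size depended on the scaling: the change was 1.57 with upper-quartile factors (adjusted p = 0.00142) and 1.23 with library totals only (adjusted p = 0.00796). Every MCAO-rTMS library was well above the highest MCAO library. Its hairpin lies in the imprinted miR-379/miR-410 cluster, a long array of hairpins read from the maternal chromosome and rich in brain miRNAs, with 40 other hairpins within 50 kb and the nearest, Mir544, at 0.48 kb. The rows of those neighbours did not move as one: of 55 tested, 14 were higher and 17 lower, with a median log2 fold change of -0.13. Over all 452 rows tested, 27.2% were higher and 28.1% lower, with a median of -0.21. Of the miRNAs that name the cluster, miR-379-5p was higher (1.09 ± 0.24 SE, adjusted p = 0.00798) and miR-410-3p lower (-1.24 ± 0.29 SE, adjusted p = 0.00939). miR-1188-5p, the lowest number among the members, lies in another cluster of the same imprinted region, beside Mir341. It was at 2.74, 2.06 and 7.64 CPM in MCAO and at 9.40, 11.0 and 8.84 CPM in MCAO-rTMS. The groups did not overlap, MCAO 3 was close to the stimulated libraries, and the change of 1.22 ± 0.47 SE did not pass (adjusted p = 0.0581). Without MCAO 3 it was 2.03 (adjusted p = 0.00454).

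Most other risers lie inside protein-coding genes. miR-1249, within Kiaa0930, was at 48.3, 43.2 and 52.9 CPM in MCAO and at 79.8, 98.1 and 117 CPM in MCAO-rTMS (1.03 ± 0.20 SE, adjusted p = 0.00512). miR-3559-3p, within Zdhhc15, a gene for a palmitoyltransferase that attaches lipid to proteins, was at 10.6, 11.8 and 7.77 CPM against 17.4, 18.9 and 19.2 CPM (0.88 ± 0.22 SE, adjusted p = 0.0125). Both had every stimulated library above every MCAO library, and neither passed with library totals only (adjusted p = 0.178 and 0.318). The opposite arm, miR-3559-5p, had a like change that did not pass (0.92 ± 0.39 SE, adjusted p = 0.0739).

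Another 3 scarce miRNAs also rose. miR-6319, within Exoc2, an exocyst subunit that tethers secretory vesicles, was at 3.18, 3.14 and 3.88 CPM in MCAO and at 6.47, 4.55 and 7.97 CPM in MCAO-rTMS (0.89 ± 0.29 SE, adjusted p = 0.0350). miR-3064-5p was at 0.828, 1.07 and 1.57 CPM against 2.71, 3.79 and 3.30 CPM (1.49 ± 0.39 SE, adjusted p = 0.0141). miR-3594-5p, within Cep131, which encodes a centrosome protein, was listed at 0.637, 0 and 0.689 CPM in MCAO and at 4.44, 3.88 and 3.40 CPM in MCAO-rTMS (3.06 ± 0.74 SE, adjusted p = 0.0111), so its MCAO values were 10, 0 and 11 counts, at the edge of what the table lists. The 3.06 takes the 0 as a true 0, and the change was 2.59, still past the threshold, with each 0 set to 9 counts. Its other arm, miR-3594-3p, changed by 0.52 ± 0.33 SE (adjusted p = 0.206; -0.12 with library totals only), and the 3p to 5p count ratio was 2.90 and 4.18 in MCAO 1 and 3 and 0.729, 0.804 and 0.943 in MCAO-rTMS 1 to 3. The call of miR-6319 was lost without MCAO 1 (adjusted p = 0.0961), MCAO 2 (0.0963), MCAO-rTMS 1 (0.0780) or MCAO-rTMS 3 (0.0859). That of miR-3064-5p was lost without MCAO 1 (adjusted p = 0.0681) or MCAO-rTMS 2 (0.0702), and with library totals only neither passed (adjusted p = 0.548 and 0.138). With upper-quartile factors miR-6319 did not pass (0.60, adjusted p = 0.131).

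Of the 3 miRNAs that were lower, miR-3068-5p was the most abundant. It was at 30.5, 26.9 and 23.4 CPM in MCAO and at 14.4, 15.7 and 17.7 CPM in MCAO-rTMS (-0.76 ± 0.19 SE, adjusted p = 0.0135). The call was lost without MCAO 1 (adjusted p = 0.0521), MCAO 2 (0.0523) or MCAO-rTMS 2 (0.0719). Its hairpin lies within Alkbh1, a nucleic acid demethylase gene, and carries the gene name Snora58, that of a small nucleolar RNA. The opposite arm, miR-3068-3p, was at 58.2, 49.2 and 46.8 CPM in MCAO and at 65.1, 52.4 and 20.6 CPM in MCAO-rTMS, with MCAO-rTMS 3 far below the rest (-0.16 ± 0.38 SE, adjusted p = 0.752). The 3p to 5p ratio was therefore even in MCAO (1.91, 1.83 and 2.0) and spread in MCAO-rTMS (4.51, 3.34 and 1.16), and the groups overlapped in it (exact permutation p = 0.4).

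miR-3065-5p and miR-6315 were detected in all MCAO libraries and in none of the stimulated ones. miR-3065-5p had 23, 16 and 31 counts in MCAO, a mean of 1.58 ± 0.325 CPM (SD, n = 3), and was listed as 0 in MCAO-rTMS (adjusted p = 0.00267). Against a floor of 9 counts a library, at the TMM factors of the main comparison, this was at least 2.05-fold lower. miR-6315, within Vps51, a subunit of a vesicle tethering complex, had 21, 20 and 16 counts in MCAO, a mean of 1.33 ± 0.324 CPM (SD, n = 3), and was at least 1.73-fold lower on the same basis (adjusted p = 0.00391). These bounds depend on the scaling. With each 0 of the table set to 9 counts and the factors estimated anew, the fitted changes were smaller than the bounds: miR-3065-5p still passed (-0.95, adjusted p = 0.00959) and miR-6315 did not (-0.68, adjusted p = 0.0699), so the size of these changes rests on counts that the table does not list.

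miR-3065-5p lies opposite miR-338. All 20 of its bases are the reverse complement of bases 4 to 23 of miR-338-3p, and RefSeq places the hairpins on opposite strands at one place within Aatk, a kinase gene of the nervous system. miR-338 is known as an oligodendrocyte miRNA. miR-338-3p was at 28.9, 21.2 and 13.9 CPM in MCAO and at 13.6, 13.4 and 11.6 CPM in MCAO-rTMS (-0.73 ± 0.28 SE, adjusted p = 0.0596), while miR-338-5p was at 278, 265 and 216 CPM against 492, 469.7 and 312 CPM (0.75 ± 0.23 SE, adjusted p = 0.0282). miR-219a-2-3p, another oligodendrocyte miRNA, was at 754, 765 and 557 CPM against 1807, 2092 and 951 CPM (1.22 ± 0.31 SE, adjusted p = 0.0134). miR-3065-5p also shares its seed, CAACAAA, with miR-7a-1-3p, which was at 16.4, 13.8 and 11.2 CPM in MCAO and at 6.47, 4.81 and 2.72 CPM in MCAO-rTMS (-1.55 ± 0.34 SE, adjusted p = 0.00767).

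**Figure D5:**
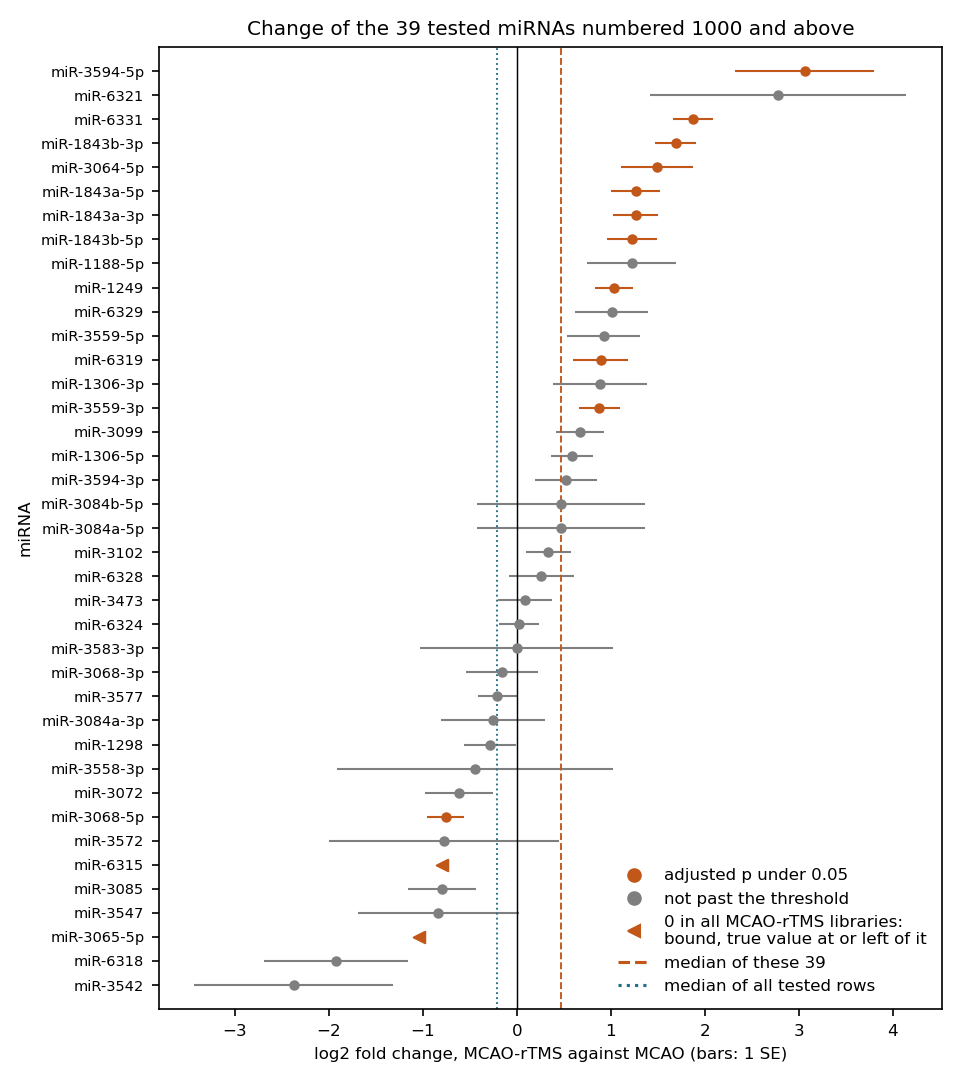
Log2 fold change of MCAO-rTMS against MCAO with 1 SE for the 39 tested miRNAs numbered 1000 and above. Colored points have an adjusted p under 0.05, triangles mark the bounds of the 2 miRNAs at 0 in all MCAO-rTMS libraries, and the dashed and dotted lines mark the medians of the 39 (0.47) and of all tested rows (-0.21).

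Of the 10 most abundant members, miR-3068-3p and 3 others did not pass. miR-3099 was at 62.2, 75.7 and 98.8 CPM in MCAO and at 123, 157 and 98.6 CPM in MCAO-rTMS (0.68 ± 0.25 SE, adjusted p = 0.0533), with MCAO 3 and MCAO-rTMS 3 at nearly one level. Without MCAO 3 or without MCAO-rTMS 3 its adjusted p was 0.0357 or 0.0246, and without MCAO 1 it was 0.169. The change was 0.37 with upper-quartile factors (adjusted p = 0.226) and 0.05 with library totals only (adjusted p = 0.911). miR-3085 was at 37.9, 48.2 and 44.5 CPM in MCAO and at 33.2, 29.9 and 11.9 CPM in MCAO-rTMS (-0.80 ± 0.36 SE, adjusted p = 0.0945). Its groups did not overlap, and it passed under 3 of 16 alternatives. These were library totals only (adjusted p = 0.0268), upper-quartile factors (0.0277) and a mean count above 200 (0.0342). miR-1298, within the serotonin receptor gene Htr2c, was at 20.4, 19.0 and 36.1 CPM in MCAO and at 21.3, 21.7 and 19.2 CPM in MCAO-rTMS (-0.28 ± 0.28 SE, adjusted p = 0.413), high in MCAO 3 alone. miR-3552, also within Htr2c, and its neighbour miR-764-5p had counts in that library only, 28 and 22.

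In all, 26 of the 39 did not pass, with 14 above 0 and 12 below and log2 fold changes from -2.37 to 2.78. For 8 of them the adjusted p was under 0.1, and for 9 (34.6%) the groups did not overlap, against 27.7% of all rows that did not pass. The highest of these changes was that of miR-6321, which was outside the rule for named miRNAs and was singled out after its values were seen. It lies within Rufy3, a gene for a protein of neuronal polarity and axon growth, and had 0, 0 and 142 counts in MCAO and 184, 224 and 308 counts in MCAO-rTMS (2.78 ± 1.36 SE, adjusted p = 0.117). It went from listed as 0 to 142 counts within one group, and all stimulated libraries were above. Among those named nowhere else, miR-1306-5p and miR-1306-3p, from within Dgcr8, the partner of Drosha in miRNA processing, changed by 0.59 ± 0.22 SE and 0.88 ± 0.50 SE (adjusted p = 0.0570 and 0.166), and miR-1306-5p was at -0.04 with library totals only. miR-6329 (1.01, adjusted p = 0.0581), miR-6318 (-1.92, adjusted p = 0.0649) and miR-3542 (-2.37, adjusted p = 0.0885) also had groups that did not overlap. In MCAO-rTMS 1 to 3 miR-6318 had 11, 10 and 0 counts and miR-3542 had 12, 0 and 0. The size of both changes thus rests on counts that the table does not list, and that of miR-3542 was -0.92 with each 0 set to 9 (adjusted p = 0.011). miR-3084a-5p and miR-3084b-5p had equal counts in every library, 21, 0 and 24 in MCAO and 18, 18 and 12 in MCAO-rTMS, and cannot be told apart. The rest (miR-3072, miR-3084a-3p, miR-3102, miR-3473, miR-3547, miR-3558-3p, miR-3572, miR-3577, miR-3583-3p, miR-6324 and miR-6328) overlapped between the groups. The 8 that were not tested, miR-6216, miR-3552, miR-2985, miR-5132-5p, miR-1247-5p, miR-3550, miR-3084a-1-5p and miR-7578, had no count above 28 and were above 0 in at most 3 libraries.

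Sequence and position were not used to choose the members. A single mature sequence was given for 40 of the 47 in RefSeq, and 6 (miR-3577, miR-3072, miR-6318, miR-3084b-5p, miR-3064-5p and miR-3084a-1-5p) had none under that name. Their median GC content was 52.4%, against 47.8% below 1000 and 54.5% in the class from 500 to under 1000, and the median length was 22 bases in both. Only 3 of the 40 (7.50%) shared a seed with another row of the table, against 109 of 388 (28.1%) below 1000: miR-1843a-3p and miR-1843b-3p with each other and miR-3065-5p with miR-7a-1-3p. The share fell with the number, from 53.2% under 100 through 30.6% and 16.9% to 11.9% from 500 to under 1000, and was 20.0% from 1000 to under 2000 and 3.33% at 2000 and above. Across miRNAs the rank correlation of GC content with log2 fold change was -0.022 over 33 high-numbered rows and 0.35 over 359 rows below 1000, where all points share the same 6 libraries.

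By position, 29 of 35 member hairpins (82.9%) lay within the span of a protein-coding gene, against 115 of 257 (44.7%) below 1000. Of these 20 were on the strand of the gene, 4 on the other strand and 5 in genes whose strand was not given. Another hairpin lay within 10 kb of 5 (14.3%), against 152 (59.1%) below 1000. The high-numbered miRNAs were thus mostly single hairpins inside genes, among them miR-2985 within Gria2, which encodes an AMPA receptor subunit, and miR-5132 within Irak1, an interleukin-1 receptor kinase gene. Host mRNA was not measured here.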

How the data were processed

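Peri-infarct cortex small RNA of 3 MCAO and 3 MCAO-rTMS libraries was compared. The deposited values are raw counts of reads per mature miRNA, made by the authors' sequencing company from size-selected libraries. The submitters' processing notes name bcl2fastq, BWA, DESeq2 and the build rn6. The miRNA annotation, the counting rule and the reason why no value from 1 to 9 occurs are not given in the sources used here. A second deposited table repeats the counts of 73 selected miRNAs (73 of 73 equal), and its columns of comparison results by the authors were not used. The study's methods name a t-test; counts need a count model, so edgeR was used.

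All 493 rows were fitted with edgeR 4.0.16 (R 4.3.3; TMM factors, filterByExpr, quasi-likelihood F test without a block, SE taken as the log2 fold change over the square root of F), with Benjamini-Hochberg adjustment over the 452 rows tested and a threshold of 0.05. The procedure was tested on simulated data. Shares of counts were compared by an exact permutation test (scipy 1.17.1). Alternatives were DESeq2 1.42.0, scaling by upper-quartile or RLE factors or by library totals only, limma 3.58.1 (voom), no filter, a mean count above 200, a replicate block, each 0 set to 9, near-identical rows summed, the left-out rows added back, and each library left out. Deviations of same-numbered libraries correlated at 0.19, -0.14 and -0.14, so the numbers were not taken as pairs.

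Values in every library are given for members past the threshold, the 10 most abundant, those at 0 in every library of one group and in none of the other, and the lowest number. The members, lists and tests were chosen with earlier results of these data known. Host genes and neighbours come from RefSeq on GRCr8, a build other than rn6, so no coordinates are given. Library totals bound the counting error, and reads without molecular identifiers are not independent molecules.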

Additional observations from a re-analysis of the deposited data

How the results depend on the processing

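The count of 13 calls among 39 stayed within 1.5 times under all alternatives except 3, and the median log2 fold change moved with most. With a mean count above 200, 7 of 10 passed (70.0%, against 67.8% of all rows). With each 0 set to 9, 20 of 43 passed (46.5%, against 51.4%), 12 of them shared with the 13. With a replicate block, which the labels and correlations do not support as a pairing, 8 of 39 passed (180 of all 452 rows), and miR-6319, miR-3065-5p, miR-6315, miR-3064-5p and miR-3594-5p were lost. The median of 0.47 was 0.53 with RLE factors, 0.16 with upper-quartile factors, -0.18 with library totals only, 0.55 with DESeq2, 0.53 with limma-voom, 0.086 without a filter, 0.72 with a mean count above 200, 0.56 with the replicate block and 0.35 with each 0 set to 9. With near-identical rows summed the median was 0.29, and 11 of 36 passed (30.6%, against 55.2% of all rows). Leaving out 1 library at a time gave 11 to 16 calls and medians from 0.25 (without MCAO 2) to 0.64 (without MCAO 3). Among the 18 miRNAs chosen by the rule for named miRNAs, 241 values kept direction and call, 21 lost the call, 12 gained it and 2 reversed without ever passing: miR-3068-3p ranged from -0.49 to 0.23, above 0 without MCAO-rTMS 3, and miR-1298 from -0.45 to 0.10, above 0 without MCAO 3, with 1 library left out. Of the other 21 tested members, 12 changed sign under at least 1 alternative, none past the threshold there. The cause of these shifts was not tested.

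Depth limits the rare rows: the table lists nothing under 10 counts, so a loss below that level has no size, and 8 members could not be tested. Each value rests on 3 libraries a group. Scaling factors differed between the groups, so directions of small changes depend on the scaling chosen.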

Other observations

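The rows that the choice of members left out had values of their own. miR-1224 was at 50.04, 53.5 and 45.8 CPM in MCAO and at 194, 209 and 337 CPM in MCAO-rTMS (log2 fold change 2.31 ± 0.26 SE, adjusted p = 0.000540 in edgeR's test). miR-1839-5p was at 186, 167 and 141 CPM against 352, 355 and 208 CPM (0.89 ± 0.25 SE, adjusted p = 0.0214), while its opposite arm miR-1839-3p was at 5.41, 3.80 and 4.01 CPM against 2.63, 2.28 and 1.17 CPM (-1.11 ± 0.38 SE, adjusted p = 0.0403). The arms of that hairpin thus passed in opposite directions in the same libraries. miR-1193-3p was at 12.4, 10.6 and 13.5 CPM against 8.12, 8.35 and 3.01 CPM (-0.89 ± 0.38 SE, adjusted p = 0.0740).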
